A study of Homo sapiens with 3 samples.

Results

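A549 cells are an established human lung adenocarcinoma line, and the genes described here are 36 genes of the endoplasmic reticulum (ER) that encode its chaperones, its disulfide enzymes, the machinery of ER-associated degradation and the sensors of unfolded protein. The 36 genes are those of a fixed list of symbols, out of 22435 genes that the array names. A probe was assigned to a gene through the RefSeq accession it carries, and a gene was represented by the probe with the highest mean log2 signal over the arrays. All 36 genes had a probe, 44 probes in all, and all 36 were well above background on each of the 3 arrays, so no gene was lost to a filter on low signal.

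RNA came from cultures kept for 48 h with 0.1% DMSO as the vehicle control, with cordycepin at 60 μg/mL or with cordyceps at 100 μg/mL. Cordycepin is a nucleoside analog of adenosine, first isolated from Cordyceps fungi, and the labels say no more of the cordyceps preparation than its name and dose. Per the labels, all 3 cultures grew in medium with 10% serum and 1% penicillin-streptomycin to which nicotinamide (10 mM), troglitazone (10 μM) and zinc sulfate (16.7 μM) had been added. Whether the treated cultures also received DMSO is not given in the sources used here. Each condition was measured on 1 Agilent array (n = 1), so the differences below set 1 array against another, have no replicate check and carry no test. In RNA from a whole culture, a change in every cell and a change in the share of responding cells cannot be told apart. Of 9 epithelial or A549-enriched marker genes, among them KRT8, KRT18, EPCAM and ALDH1A1, 9 were well above background on all 3 arrays. Of 8 leukocyte, endothelial and fibroblast markers, 4 (CD3E, PECAM1, COL3A1 and DCN) were on no array by their brightest probe, whereas PTPRC, CD14 and COL1A1 were on all 3. For CDKN2A, a gene known to be deleted in A549 cells, the brightest probe was above background on all 3 arrays and the other probe on none.

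Proteins that enter the secretory pathway fold in the ER with the help of chaperones such as BiP, the product of HSPA5, and of protein disulfide isomerases. When unfolded protein accumulates there, the sensors IRE1 (ERN1), PERK (EIF2AK3) and ATF6 start the unfolded protein response, in which the transcription factors XBP1, ATF4 and cleaved ATF6 raise the synthesis of chaperones and of the degradation machinery. ER-associated degradation recognises misfolded glycoproteins, moves them back to the cytosol and passes them to the proteasome.

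The cordyceps array exceeded the control array by 2-fold or more in 22 of the 36 genes and fell short of it by as much in 0, while among the 15602 named genes detected on either array 4.19% were 2-fold higher and 3.15% 2-fold lower. The median log2 ratio of the 36 genes was 1.09, that is 2.12-fold, compared with -0.10 over all named genes. The largest ratios were those of HERPUD1, 7.04-fold, HSPA5, 6.79-fold, CRELD2, 5.13-fold, and SEC24D, 4.24-fold. DERL3 and EDEM2 alone were below control. Cordycepin gave 1 gene that passed 2-fold upward (SEC24D) and 1 that passed it downward (HYOU1), against 5.95% and 3.57% of 15917 named genes, and the median log2 ratio was -0.33 compared with -0.04 over all named genes. Thus 30 of the 36 genes lay below control with cordycepin, 83.3% of them, whereas 54.0% of all named genes did; with median scaling it was 34 of the 36 and 74.1% of all named genes.

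**Figure D1:**
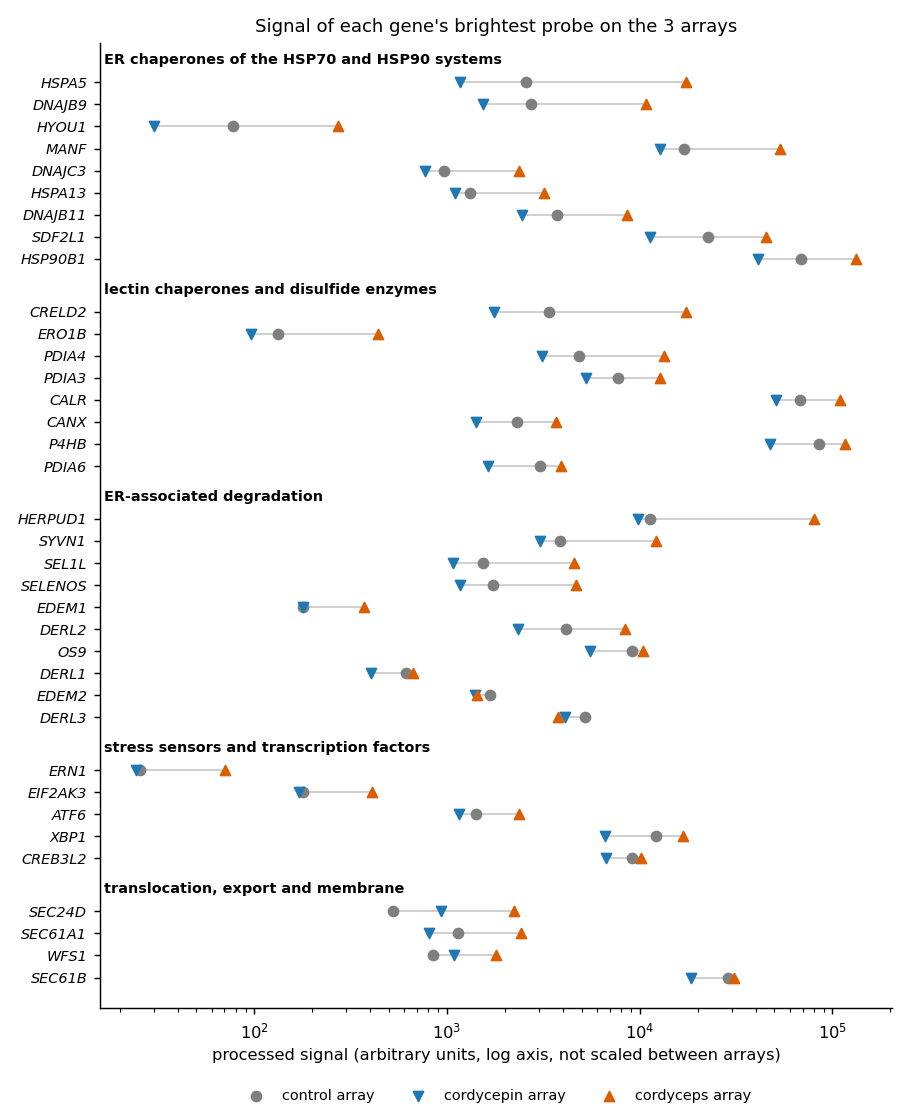
Processed signal of the brightest probe of each of the 36 genes (log axis, arbitrary units, before scaling between arrays) on the control array (grey circles), the cordycepin array (blue, pointing down) and the cordyceps array (orange, pointing up), 1 array per condition, with a line from the lowest to the highest value. Signals of different genes come from different probes and are not comparable; within a gene, the cordyceps array is highest for all but DERL3 and EDEM2.

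The order of the 3 arrays was alike in most genes. After each array was scaled to its 75th percentile, 28 of the 36 genes were highest on the cordyceps array, intermediate on the control array and lowest on the cordycepin array. The share of all named genes in this order was not counted, so the count does not set the list apart. Some of the 28, such as HSPA13 and ATF6, were close to control with cordycepin, at log2 ratios of -0.05 and -0.08. HERPUD1, EDEM1, ERN1, EIF2AK3, SEC24D and WFS1 were lowest on the control array. This order depended on the scaling: with median scaling SEC24D and WFS1 alone remained above control with cordycepin, and HERPUD1, EDEM1, ERN1 and EIF2AK3 lay below it, at log2 ratios of -0.26, -0.04, -0.12 and -0.12. No gene was highest on the cordycepin array. The agents and doses differ and both comparisons use the same control array, so the values are given side by side. A guide to technical error comes from genes with 2 probes: outside the corner described below, the SD for 1 probe, taken from the gap between both log2 ratios, was 0.21 for cordyceps and 0.27 for cordycepin, over 2354 genes. Both probes of a gene share the same arrays, so this spread leaves out error between arrays and between cultures. With cordyceps, 30 of the 36 genes lay above control by more than this spread, and 21.0% of all named genes did. With cordycepin, 20 of the 36 lay below control by more than the spread, and 29.7% of all named genes did.

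**Figure D2:**
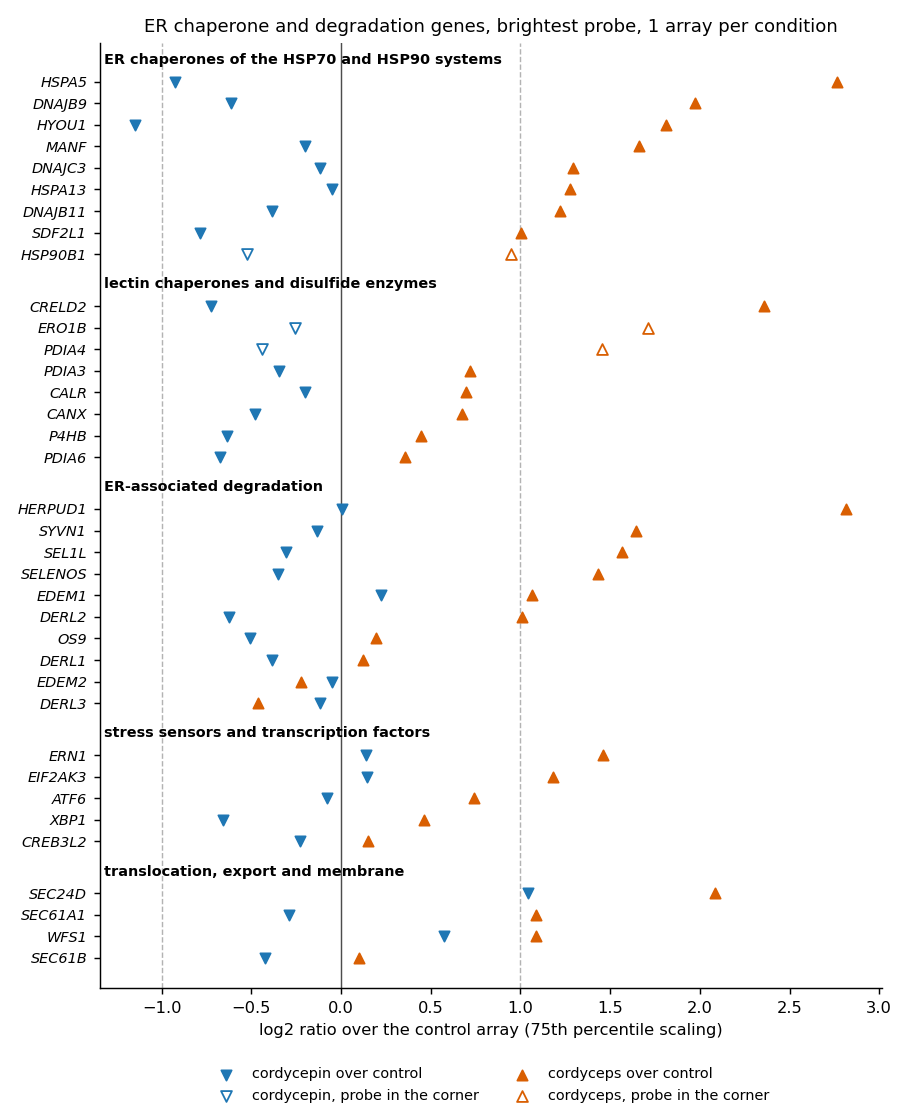
Log2 ratio of each gene's brightest probe over the control array for cordycepin (blue, pointing down) and cordyceps (orange, pointing up), grouped by the role of the gene, 1 array per condition; open symbols are probes whose spot lies in the corner of the array with uneven background, and dashed lines mark 2-fold. The cordyceps values run from -0.46 (DERL3) to 2.81 (HERPUD1), and the cordycepin values from -1.15 (HYOU1) to 1.04 (SEC24D).

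The counts depended on the threshold and the scaling as follows. With cordyceps 27 genes passed 1.5-fold upward and 9 passed 3-fold (8.3% and 2.29% of named genes), and at 2-fold the count was 24 with median scaling, 19 with normexp background correction and 21 of 34 with the corner left out (6.17%, 2.71% and 3.33%). With cordycepin 9 genes passed 1.5-fold downward (11.8%), 0 passed 3-fold in either direction (2.45% upward and 0.936% downward), and at 2-fold 0 were lower with normexp (1.69%). Median scaling and no scaling each gave 0 higher (3.74% and 4.12%) and 3 lower (7.41% and 6.33%) with cordycepin.

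Among the groups by role, the chaperones of the HSP70 and HSP90 systems had the largest share of genes at least 2-fold higher with cordyceps. It was 8 of 9 genes, compared with 4.19% of all named genes. Their median log2 ratio was 1.30, with values from 0.95 to 2.76. HSPA5, which encodes the HSP70 chaperone BiP, had a signal of 2560 in control cells, 1163 with cordycepin and 17397 with cordyceps. Its log2 ratio was -0.92 with cordycepin and 2.76 with cordyceps, so that the treated cultures lay on opposite sides of control. HYOU1, a large HSP70 relative that serves BiP as a nucleotide exchange factor, was dim, with signals of 77.6, 30.2 and 272 in the same order of arrays, and its log2 ratios were -1.15 and 1.81. HSPA13, another HSP70 relative, gave signals of 1316, 1097 and 3192 and was 2.42-fold higher with cordyceps. For HSPA13 the cordycepin value, with a log2 ratio of -0.05, lay within the spread of a single probe.

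The J-domain partners of BiP moved in the same direction with cordyceps. DNAJB9, also called ERdj4, had signals of 2730 in control cells, 1540 with cordycepin and 10723 with cordyceps, and was 3.93-fold higher with cordyceps. DNAJC3, or p58IPK, another J protein of the ER, gave 967, 767 and 2374. DNAJB11, or ERdj3, gave 3699, 2440 and 8619, a log2 ratio of -0.39 with cordycepin and of 1.22 with cordyceps. SDF2L1, which acts together with DNAJB11, was 2.01-fold higher with cordyceps and is the gene just over the 2-fold threshold, with signals of 22530, 11265 and 45258. MANF, a secreted ER protein that binds BiP, had signals of 16969, 12720 and 53667 and was 3.16-fold higher with cordyceps. HSP90B1, which encodes the HSP90 chaperone GRP94, lies just under the threshold, at a log2 ratio of 0.95 with cordyceps by a probe in the corner of the array. Its other probe lies outside the corner and gave 1957, 1250 and 5151, a log2 ratio of 1.40.

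The promoters of BiP and its relatives are known for the ER stress response element (ERSE), CCAAT and CCACG with 9 bases of any kind between them, which binds NF-Y together with ATF6 or XBP1. A shorter form, ERSE-II, is ATTGG and CCACG with 1 base between them. The 250 bases before the RefSeq start of 5 genes that hold an element on either strand are shown, with ERSE or ERSE-II in capitals. HSPA5, CRELD2 and XBP1 hold an ERSE and differ widely in their cordyceps value, and HERPUD1 and HYOU1 hold ERSE-II. They lie, in GRCh38.p14, at chr9:125241344-125241593, minus strand (HSPA5), chr22:49918384-49918633, plus strand (CRELD2), chr22:28800570-28800819, minus strand (XBP1), chr16:56931892-56932141, plus strand (HERPUD1) and chr11:119057206-119057455, minus strand (HYOU1). Each is written 5′ to 3′ on the strand of its gene, so that an element on the other strand appears as its reverse complement (CRELD2 and HYOU1).
HSPA5: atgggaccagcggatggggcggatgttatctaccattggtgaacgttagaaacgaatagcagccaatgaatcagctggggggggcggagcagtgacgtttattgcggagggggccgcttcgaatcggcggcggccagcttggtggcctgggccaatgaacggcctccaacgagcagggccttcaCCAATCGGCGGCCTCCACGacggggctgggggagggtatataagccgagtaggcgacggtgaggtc
CRELD2: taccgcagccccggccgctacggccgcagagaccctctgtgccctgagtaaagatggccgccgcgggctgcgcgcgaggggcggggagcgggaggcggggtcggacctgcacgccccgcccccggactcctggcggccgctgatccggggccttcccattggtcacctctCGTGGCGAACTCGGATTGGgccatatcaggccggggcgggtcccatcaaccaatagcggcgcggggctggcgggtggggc
XBP1: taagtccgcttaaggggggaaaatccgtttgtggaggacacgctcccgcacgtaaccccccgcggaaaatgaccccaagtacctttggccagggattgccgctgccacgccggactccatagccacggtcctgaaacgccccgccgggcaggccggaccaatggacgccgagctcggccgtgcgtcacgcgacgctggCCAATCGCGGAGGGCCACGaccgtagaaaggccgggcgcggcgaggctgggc
HERPUD1: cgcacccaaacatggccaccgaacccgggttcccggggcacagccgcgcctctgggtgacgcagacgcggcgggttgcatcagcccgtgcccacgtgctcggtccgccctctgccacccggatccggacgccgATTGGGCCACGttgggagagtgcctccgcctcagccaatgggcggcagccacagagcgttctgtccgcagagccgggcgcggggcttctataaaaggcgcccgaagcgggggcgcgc
HYOU1: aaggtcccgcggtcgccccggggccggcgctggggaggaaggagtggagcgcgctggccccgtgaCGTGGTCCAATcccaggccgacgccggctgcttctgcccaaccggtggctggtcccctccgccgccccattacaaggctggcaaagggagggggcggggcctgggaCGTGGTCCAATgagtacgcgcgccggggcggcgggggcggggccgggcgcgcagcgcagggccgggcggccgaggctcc

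Of the 36 genes, 32 had a promoter in the RefSeq table, and PDIA3, DERL1, DERL3 and SEC24D did not. The windows run from 250 bases before to 50 after the start. An ERSE on either strand was found in 7 of the 32 windows (21.9%), those of HSPA5, HSP90B1, CALR, CANX, CRELD2, XBP1 and ERO1B, and in 22 of all 27305 windows (0.0806%). ERSE-II was found in those of HERPUD1, SDF2L1 and HYOU1 (9.38%) and in 0.0549% of all windows. The ERSE is known from the promoters of BiP and its relatives, which are in the list. Its higher share in the list was thus partly fixed by the choice of genes and of elements. The first base of the element lay 66 bases before the start in HSPA5 and 52 bases before it in XBP1. With cordyceps the 7 genes with an ERSE had a median log2 ratio of 0.95 and the other 25 had 1.18, and 3 of the 7 and 18 of the 25 were at least 2-fold higher. The 3 genes with ERSE-II, which are among those 25, all passed 2-fold upward, their median being 1.81, compared with 1.09 for the 29 genes without it. The UPRE core TGACGTGG was found in HYOU1, where it overlaps an ERSE-II, and in 0.795% of all windows. The core TGATGCAA of an amino acid response element was found in HERPUD1 and in 0.923% of all windows. A match describes these letters alone, and binding was not measured. Outside the list, 7 measured genes hold an ERSE, of which FICD, with a log2 ratio of 2.25 by a probe in the corner, and SERP1, with 1.04, were 2-fold higher with cordyceps (both named after their values were seen). Of 8 measured genes outside the list with ERSE-II, 0 were 2-fold higher with cordyceps, and their median log2 ratio was -0.29. In the corner 10.1% of all named genes were 2-fold higher with cordyceps, and over the whole array 4.19%. At the latter share, a count of 0 in 8 genes says nothing about ERSE-II.

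The lectin chaperones and disulfide enzymes were above control with cordyceps in all 8 genes, with a median log2 ratio of 0.71, and 3 of the 8 reached 2-fold. CRELD2, a small disulfide isomerase-like protein, had signals of 3379 in control cells, 1763 with cordycepin and 17339 with cordyceps. It was the exception in size, with log2 ratios of -0.72 and 2.36. PDIA4, known as ERp72, gave 4867, 3096 and 13334 and was 2.74-fold higher with cordyceps. ERO1B, an oxidase that hands disulfide bonds to the isomerases, gave 133, 95.7 and 436 and was 3.28-fold higher. Both of these probes lie in the corner, which leaves CRELD2 as the single gene of this group called at 2-fold outside it. CALR and CANX encode calreticulin and calnexin, the lectins that hold glycoproteins during folding. They had cordyceps log2 ratios of 0.70 and 0.67, and PDIA3, the isomerase that works with both, had 0.72. P4HB, which encodes protein disulfide isomerase itself, gave 85460, 47333 and 116334, a log2 ratio of 0.44, while its second probe gave 0.99. PDIA6 had the lowest cordyceps value of the group, 0.36. With cordycepin, all 8 genes were below control, from -0.20 for CALR to -0.72 for CRELD2, and none reached 2-fold. Of all named genes, 54.0% were below control with cordycepin.

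In ER-associated degradation, 6 of 10 genes reached 2-fold upward with cordyceps, with a median log2 ratio of 1.04, and the other 4 were nearer to control. HERPUD1, a membrane protein that assembles the degradation complex, had signals of 11334 in control cells, 9801 with cordycepin and 79789 with cordyceps. It had the highest cordyceps ratio of all 36 genes, a log2 ratio of 2.81, and with cordycepin its log2 ratio was 0.0043. The ubiquitin ligase SYVN1, or HRD1, gave 3862, 3029 and 12082 and was 3.13-fold higher with cordyceps. Its partner SEL1L gave 1540, 1072 and 4567, 2.96-fold higher, and its other 2 probes gave log2 ratios of 1.32 and 1.48. SELENOS, a selenoprotein that links the channel to the extracting ATPase VCP, gave 1726, 1166 and 4660, a log2 ratio of 1.43. DERL2, a rhomboid-like protein of the channel, gave 4168, 2327 and 8403 and EDEM1, a mannosidase-like protein that marks glycoproteins for degradation, gave 178, 179 and 373, 2.02-fold and 2.09-fold higher with cordyceps. With normexp background correction EDEM1 lost the 2-fold call, at a log2 ratio of 0.89. Relatives of the degradation genes above gave lower values. DERL1 had a cordyceps log2 ratio of 0.12, EDEM2 of -0.22 and the lectin OS9 of 0.19. The EDEM2 spot had its local background marked as an outlier on the cordyceps array and not on the other arrays. DERL3 had signals of 5170, 4111 and 3755, a log2 ratio of -0.46, by a probe that measured it on all arrays, and its second probe was not well above background on any.

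Among the sensors, ERN1 and EIF2AK3 were at least 2-fold higher with cordyceps. ERN1 had dim signals, 25.6 in control cells, 24.3 with cordycepin and 70.4 with cordyceps, close to the lowest signal well above background on the control array, 18.6. EIF2AK3 gave 179.5, 171 and 407, a log2 ratio of 1.18. With normexp background correction both lost the 2-fold call, at 0.64 for ERN1 and 0.92 for EIF2AK3. ATF6 gave 1413, 1154 and 2360, a log2 ratio of 0.74. With cordycepin these 3 sensors had log2 ratios of 0.14, 0.14 and -0.08, all within the spread of a single probe. CREB3L2, a transcription factor of the ATF6 kind, gave 9108, 6702 and 10108, a cordyceps log2 ratio of 0.15, and its 2 probes gave opposite signs with cordycepin, -0.23 and 0.63.

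XBP1, the transcription factor whose mRNA is spliced by IRE1, is the gene with the most precise value, since its probe is printed as 10 spots. The 10 spots ranged from 11478 to 12690 on the control array, from 6304 to 6782 on the cordycepin array and from 16296 to 17257 on the cordyceps array, so that the spots of the 3 arrays did not overlap. The log2 SD between spots was 0.049, 0.034 and 0.028. The log2 ratio was -0.66 with cordycepin and 0.46 with cordyceps, both larger than the spread between spots, which covers technical error within an array alone. The probe gave the level of XBP1 mRNA, and its spliced form was not analysed here.

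The last group holds genes of entry, export and the ER membrane. SEC24D, a cargo adaptor of the COPII coat, was the single gene of the 36 that passed 2-fold upward with both treatments, with signals of 524 in control cells, 929 with cordycepin and 2223 with cordyceps, or 2.06-fold and 4.24-fold higher. WFS1, a membrane protein of the ER that is a known target of the unfolded protein response, followed the same order, with 849, 1089 and 1803, log2 ratios of 0.57 and 1.09. SEC61A1, the pore of the translocon, gave 1142, 805 and 2425 and was 2.12-fold higher with cordyceps. SEC61B, a small subunit of the same pore, gave 28649, 18406 and 30746, a log2 ratio of 0.10.

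On the cordyceps array a corner holding 18.8% of the spots (rows beyond 5/8 and columns beyond 50% of the array) had an outlying local background at 11.2% of its spots, compared with 0% there on the other arrays. In that corner 10.1% of named genes were 2-fold higher with cordyceps, and outside it 2.66%. The brightest probes of HSP90B1, PDIA4 and ERO1B lie wholly in the corner, as do 3 of the 10 spots of XBP1. With XBP1 counted as inside, 2 of the 4 genes in the corner and 20 of the 32 outside it were at least 2-fold higher. The local background of the HSP90B1, PDIA4 and ERO1B spots was 43, 42 and 39.5 on the cordyceps array, and 47, 44 and 45 on the control array, and none of the 3 spots was marked as a background outlier. The XBP1 spots in the corner gave a cordyceps log2 ratio of 0.49 and those outside it 0.45. The part of the corner in the values of PDIA4 and ERO1B was not tested.

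**Figure D3:**
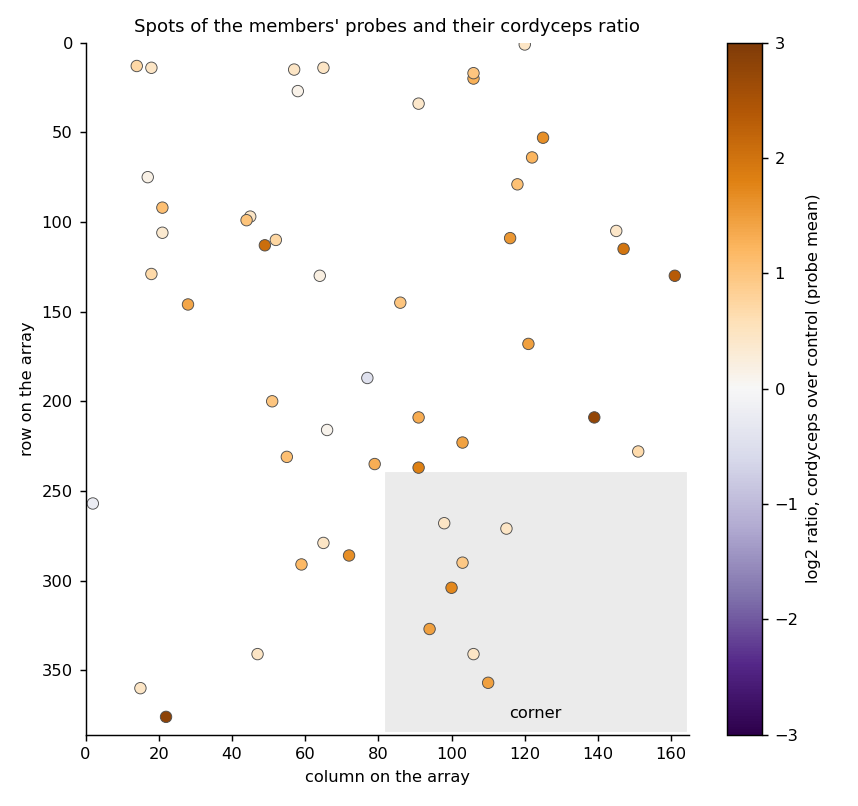
Position on the array (row and column) of the spots of the probes that measured the 36 genes, coloured by the log2 ratio of cordyceps over control of their probe, with the corner shaded. Most spots with high values, such as those of HSPA5, HERPUD1 and CRELD2, lie outside the corner.

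Genes with several probes allow a check within the list. Of the 7 genes with over 1 probe, 6 had a second measured probe, and with cordyceps all 7 of these further probes had the sign of the brightest one, with a median gap of 0.25 and a largest gap of 0.54 on the log2 scale (P4HB). With cordycepin 6 of the 7 did, CREB3L2 being the exception, with a largest gap of 0.95 (SEL1L). SEL1L had log2 ratios of -0.31, -0.32 and -1.26 with cordycepin, the last by a probe with a control signal of 60.8.

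Other genes of the same pathways were read from further lists. The difference with cordyceps was not shared by all genes of the ER. Of 13 measured folding and glycan enzymes outside the list, 0 were 2-fold higher or lower with cordyceps and the median log2 ratio was 0.03. Of 18 other degradation genes the count was also 0, with a median of 0.12, and VCP, the ATPase that extracts substrates, had a log2 ratio of -0.04. Of 25 other genes of ER entry and export, 2 were 2-fold higher (8%, compared with 4.19% of all named genes), and the median was 0.28. They were SEC23B, a subunit of the COPII coat that pairs with SEC24 adaptors, 2.31-fold, and SSR3, a translocon-associated protein, 2.61-fold by a probe in the corner. Outside the corner the count was 1 of 16. With cordycepin, none of these 3 lists had a gene called in either direction, and the medians were -0.44, -0.17 and -0.09. Below control were 11 of 13, 14 of 18 and 17 of 25 of their genes, compared with 54.0% of all named genes. Lying below control with cordycepin was thus not particular to the 36 genes, whose median was -0.33. Of all named genes, 5.95% were called higher and 3.57% lower with cordycepin.

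The targets of the integrated stress response, which lie downstream of ATF4, had 12 of 19 genes at least 2-fold higher with cordyceps, with a median log2 ratio of 1.32. Whether PERK or another signal lay upstream was not tested. Of all named genes, 4.19% were that much higher. Of the 12 targets, TRIB3, ASNS, PSAT1 and STC2 have their probe in the corner, which leaves 8 of 13 outside it, compared with 2.66% of all named genes there. DDIT3, which encodes the death-associated factor CHOP, had signals of 482 in control cells, 1038 with cordycepin and 9213 with cordyceps, 2.50-fold and 19.1-fold higher. PPP1R15A, or GADD34, which directs the phosphatase that reverses the PERK signal, gave 239, 474 and 1355, log2 ratios of 1.20 and 2.50. ATF3, a transcription factor of the same response, was 3.97-fold and 8.78-fold higher with the 2 agents. CHAC1, an enzyme that degrades glutathione, was 8.22-fold and 7.95-fold higher, and NUPR1 2.43-fold and 2.42-fold. SLC3A2, an amino acid transporter subunit, SESN2, which restrains mTORC1, and CEBPG, a partner of ATF4, had cordyceps log2 ratios of 1.77, 1.55 and 1.24. ATF4 itself, controlled largely at translation, had log2 ratios of -0.07 and 0.62. Of the 19 genes, 5 passed 2-fold upward with cordycepin (DDIT3, ATF3, CHAC1, PPP1R15A and NUPR1) and 1 downward (DDIT4, an inhibitor of mTORC1, 2.48-fold), and the median log2 ratio was 0.31. The shares of all named genes were 5.95% upward and 3.57% downward. On the cordycepin array the 9 HSP70 and HSP90 chaperones were all below control, with a median log2 ratio of -0.52. Of all named genes, 54.0% were below control on that array, and 74.1% with median scaling. The difference between these lists was not tested.

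**Figure D4:**
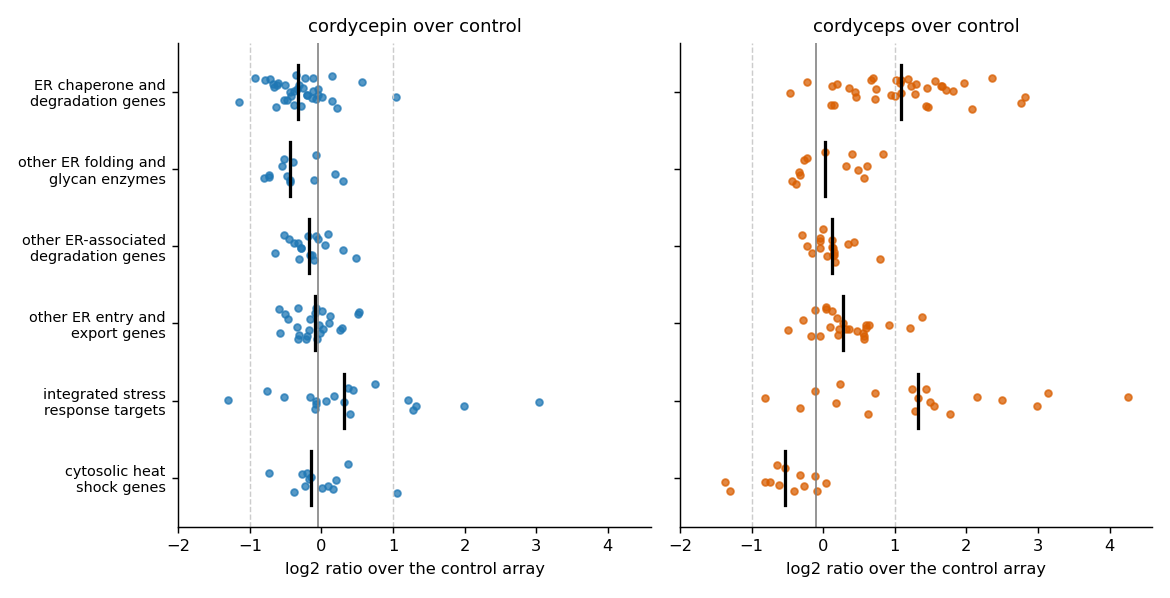
Log2 ratio over the control array of each gene (point, by its brightest probe) in the ER chaperone and degradation genes and in 5 other lists, for cordycepin (left) and cordyceps (right), 1 array per condition; black bars are the medians of the lists, the grey line is the median of all named genes and dashed lines mark 2-fold. With cordyceps the medians are 1.09 for the ER chaperone and degradation genes and 1.32 for the integrated stress response targets, and between -0.54 and 0.28 for the other 4 lists.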

How the data were processed

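A549 RNA was labelled with Cy3 and hybridized to 1 Agilent whole-genome array per condition. The authors deposited the scanner output, whose intensity values were background-subtracted within each array by Feature Extraction 11.5.1.1 and were not scaled between arrays, and a table of the same intensity values averaged per probe. The methods name Cy3 and Cy5 for the conditions and GeneSpring for normalization; the files hold 1 channel per array, so ratios were taken between arrays.

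Control and outlier spots were left out, and log2 of the processed signal minus the 75th percentile of each array was averaged over the spots of a probe. Detection required the scanner's well-above-background flag on 50% or more of a probe's spots, which 42.1% to 49.0% of the 58201 probes met. A gene was called at 2-fold or more where either array of the pair detected its probe, with a bound in place of a ratio where 1 did; no spot was saturated. The SD of a single probe is 1.483 times the median absolute difference between the 2 brightest probes of a gene, divided by the square root of 2. Of 58201 probes, 31104 were named through RefSeq transcripts of GRCh38.p14; the array design uses hg19, so array probes are given no coordinates. Promoters come from RefSeq. The number of arrays limits the precision.

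Members, lists, motifs and alternatives were chosen with earlier results of these data known. Named genes are all 36 members by role and, in the other lists, genes called with either agent, with ATF4, DDIT3 and VCP. Protein sequences were not used here. Alternatives were other scalings, normexp background correction (offset 50, on median spot signals), leaving out the corner, the median over a gene's probes, other detection rules, the deposited table and thresholds of 1.5-fold and 3-fold. The calling was tested on simulated data: of 200 probes changed 4-fold among 58191 when the cordycepin and control arrays were simulated, 200 were recovered and 0 others were called. The changed probes were all detected on both arrays, and every probe was given the same noise. The simulation thus did not cover changes near 2-fold, the larger error of some probes, or the cordyceps array and its corner. Python 3.11.15, numpy 2.4.6, pandas 2.3.3, R 4.3.3 and limma 3.58.1 were used.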

Additional observations from a re-analysis of the deposited data

How the results depend on the processing

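With cordyceps, the count of ER chaperone and degradation genes at least 2-fold higher was 22 of 36 and stayed between 19, with normexp background correction, and 24, with median scaling, over the alternatives that kept the 2-fold threshold; it was 27 at 1.5-fold, where 8.3% of named genes were called, and 9 at 3-fold, where 2.29% were. At 2-fold, 19 genes were called under every setting that gave them a value, and 34 were above control under every such setting; PDIA4 and ERO1B, which are among both, have no value with the corner left out. The median log2 ratio with cordyceps became 1.36 with median scaling, which shifts the median of all named genes by 0.22; relative to that median the 36 genes stood at 1.18 under the main scaling and 1.24 under median scaling. EDEM2 was slightly above control, at 0.05, under median scaling. Leaving out the corner left 34 genes, of which 21 were 2-fold higher. HSP90B1 passed 2-fold there (1.51) and under 4 other settings.

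With cordycepin, the counts rest on few genes. Against 1 higher and 1 lower, median scaling and no scaling each gave 0 higher and 3 lower (HYOU1, HSPA5 and SDF2L1), normexp 0 lower, the 1.5-fold threshold 9 lower and the 3-fold threshold 0 higher and 0 lower. HYOU1 gave -0.52 with normexp, and its control signal of 77.6 is dim. Median scaling and no scaling lowered the median of all named genes by 0.26 and 0.21. Relative to that median the 36 genes stood at -0.28 under the main scaling, median scaling and no scaling. These settings differ by a constant per array, which moves the 36 genes and all genes alike, so this agreement is no check. Under quantile normalization the value was -0.25, and without a detection filter it was -0.41. Of the 19 integrated stress response targets, 4 were 2-fold higher and 2 lower with cordycepin under median scaling, as were 3.74% and 7.41% of all named genes. No called value of the 36 genes changed sign. No paired analysis was possible because there is 1 array per condition, and no replicate could be left out.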

Other observations

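Most chaperones of the cytosol and mitochondria gave lower values with cordyceps than with the control vehicle. Of 13 such heat shock genes, 12 were below control with cordyceps, as were 59.6% of all named genes, and the median log2 ratio of the 13 was -0.54. At least 2-fold lower were 2 of them, compared with 3.15% of all named genes: HSPA1A, 2.60-fold, and HSPA1B, 2.48-fold. These genes encode the inducible cytosolic HSP70 and are nearly identical, and whether their probes separate them was not tested. HSPD1, which encodes the mitochondrial HSP60, was the gene above control, with a log2 ratio of 0.04 by a probe in the corner of the array. HSP90AA1, an inducible cytosolic HSP90, had signals of 63221 in control cells, 70261 with cordycepin and 36104 with cordyceps. With cordycepin, HSPA4L, an HSP110 relative, was 2.08-fold higher, 0 genes were 2-fold lower, and the median was -0.15. Under median scaling 9 of the 13 were below control with cordyceps, with a median of -0.27, as were 32.8% of all named genes, 2 were 2-fold lower, and HSPA4L no longer passed 2-fold with cordycepin.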
